A study of Mus musculus with 6 samples.

Results

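The core circadian clock genes are the 10 transcription factors and repressors Arntl, Clock, Nr1d1, Nr1d2, Dbp, Per1, Per2, Per3, Cry1 and Cry2. They were chosen by name, and all 10 were found among the 30330 gene symbols of the deposited table. RNA was measured in whole colons of 3 Tnfrsf1a-/- mice, which lack tumour necrosis factor receptor 1 (TNFR1), and of 3 wild-type mice. All mice were males of 12 weeks, and the strain label of every sample is C57Bl/6J. How the allele was made, how many cages or litters the mice came from, and the time of day at which the colons were taken are not given in the sources used here. Values are TPM, a share of all transcripts in a library that is corrected for transcript length, so that levels can be compared between genes.

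The clock runs as a feedback loop in nearly every cell. ARNTL (also called BMAL1) and CLOCK pair up, bind E-boxes and switch on the Per, Cry, Nr1d and Dbp genes. PER and CRY proteins then repress ARNTL and CLOCK, while the nuclear receptors NR1D1 and NR1D2 (REV-ERB alpha and beta) repress Arntl through ROR elements and DBP acts on D-boxes. In tissues sampled around the day, Arntl RNA peaks at a time when Dbp, Nr1d1 and Per RNAs are near their trough, so the ratio of Arntl to these genes moves with the time of day. In the colon, the clock runs in epithelium, smooth muscle, nerves and immune cells.

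Letters matching the elements of this loop were found in the promoter windows of some members. RefSeq promoter windows on GRCm38.p6, from 250 bases before to 50 bases after a transcription start, were given for 9 of the 10 members (13 windows); Per2 had none in the table. The windows were searched on both strands for the E-box CACGTG, the D-box TTATGTAA or TTACGTAA, and the ROR element core TAGGTCA or TGGGTCA. The E-box was in 2349 of all 32851 windows (7.15%) and in 2 of the 13 member windows. The D-box was in 347 of all windows (1.06%) and in 1 member window, and the ROR element core in 2120 (6.45%) and in 1 member window. Whether members hold more matches than other genes was not tested. The 250 bases before the start are shown for Per1, which carried the largest difference between genotypes, and for Cry1 and Per3, the other members with a match there, with each matched motif in capitals. For Arntl the 27 bases around the match in its second window are shown, which lie after the start.
Per1 (chr11:69098699-69098948, plus strand): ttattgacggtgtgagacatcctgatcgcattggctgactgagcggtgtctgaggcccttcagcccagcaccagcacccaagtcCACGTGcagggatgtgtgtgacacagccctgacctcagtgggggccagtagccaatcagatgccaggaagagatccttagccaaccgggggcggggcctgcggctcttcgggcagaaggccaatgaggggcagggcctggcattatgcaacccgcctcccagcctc
Cry1 (chr10:85185055-85185304, minus strand): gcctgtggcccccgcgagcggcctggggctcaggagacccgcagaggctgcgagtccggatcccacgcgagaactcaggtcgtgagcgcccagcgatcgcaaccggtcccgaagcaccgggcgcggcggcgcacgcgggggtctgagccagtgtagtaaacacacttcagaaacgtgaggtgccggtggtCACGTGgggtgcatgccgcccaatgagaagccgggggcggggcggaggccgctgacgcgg
Per3 (chr4:151044666-151044915, minus strand): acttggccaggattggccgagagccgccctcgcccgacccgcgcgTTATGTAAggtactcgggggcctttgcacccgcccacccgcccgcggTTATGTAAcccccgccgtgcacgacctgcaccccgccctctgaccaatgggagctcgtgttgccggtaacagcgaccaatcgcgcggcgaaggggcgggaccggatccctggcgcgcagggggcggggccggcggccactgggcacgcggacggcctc
Arntl (chr7:113207531-113207557, plus strand): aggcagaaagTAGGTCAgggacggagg
Per1 held the E-box CACGTG at -166 to -161 from the start of its first window, and Cry1 held it at -60 to -55. Per3 held the D-box TTATGTAA at 2 places, -205 to -198 and -158 to -151. Arntl held the ROR element core TAGGTCA at 31 to 37 after its start. The windows of Clock, Cry2, Dbp, Nr1d1 and Nr1d2 held none of these letters, which says nothing about binding elsewhere.

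Before the members are compared, 2 facts about the libraries bear on every value. The knockout label was checked on Tnfrsf1a itself. Its full-length transcript was at 23.5, 20.4 and 25.6 TPM in the Tnfrsf1a-/- colons, against 67.6, 39.9 and 59.1 TPM in the wild-type colons. A shorter Tnfrsf1a transcript was at 12.4 to 18.0 TPM in the Tnfrsf1a-/- colons and at 0.89 to 1.2 TPM in the wild-type colons, so each knockout library had less full-length and more short Tnfrsf1a RNA than any wild-type library, and none was at 0. Wild-type replicate 2 stood apart from the rest. In that library 27.4% of all TPM lay in transcripts with no gene, against 1.86 to 7.23% in the other libraries, which lowers every other TPM value there. Values are therefore also given after median-of-ratios scaling, written as scaled values, for which the factor of wild-type replicate 2 was 0.786 and those of the others were 0.918 to 1.13. The read depth behind a single TPM value is unknown, and the design text gives an average of 30 M paired-end reads of 50 bases per sample.

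No core clock gene differed between Tnfrsf1a-/- and wild-type colons past the threshold, which was an adjusted p of 0.05 over all 14248 genes tested (limma with Benjamini-Hochberg adjustment). Among all genes tested 38 passed, 0.267%, and none of the 10 members was among them; after median-of-ratios scaling 0.0421% of genes and again no member passed. Per1 came nearest, with a 1.47-fold higher mean in Tnfrsf1a-/- colons. The other members had mean log2 differences between -0.25 (Per3) and 0.30 (Dbp). At an unadjusted p under 0.05 there was 1 member, Per1, against 3.69% of all genes, and there were 2 after scaling, Per1 and Per3, against 11.3% of all genes. The log2 fold change was positive for 3 members and negative for 7, and its median was -0.05, beside 0.025 over all genes. The median size of the change, sign left aside, was 0.118 for the members and 0.121 for all genes. The 95% interval of a member's log2 fold change reached a median of 0.48 to each side on TPM as deposited and 0.32 after scaling, before any adjustment for the number of genes.

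**Figure D1:**
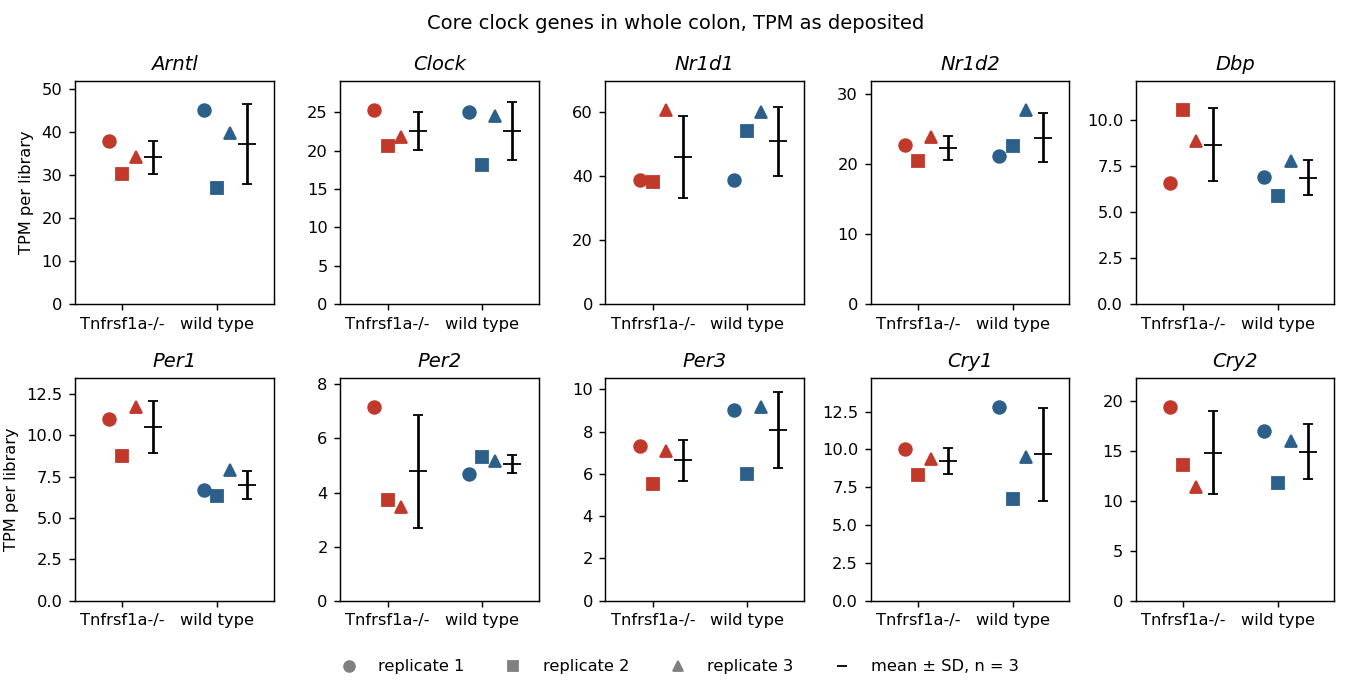
TPM of each core clock gene (vertical axes from 0) in 3 Tnfrsf1a-/- colons and 3 wild-type colons; points are libraries, shaped by replicate number, and bars are mean ± SD. For Per1 all Tnfrsf1a-/- points lie above all wild-type points, and for the other 9 genes the groups overlap.

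Arntl (ENSMUSG00000055116, chromosome 7, 113207465 to 113314126, plus strand, mm10) encodes the partner without which the loop does not run. It was at 38.0, 30.3 and 34.3 TPM in Tnfrsf1a-/- colons, against 45.1, 26.9 and 39.8 TPM in wild-type colons. The wild-type range enclosed the knockout range, with wild-type replicate 2 lowest. The log2 fold change was -0.10 ± 0.22 (SE; limma, adjusted p = 1.0). After scaling, the values were 35.8, 33.03 and 32.1 in Tnfrsf1a-/- colons, against 39.9, 34.3 and 36.2 in wild-type colons, with a log2 fold change of -0.13 (limma, adjusted p = 0.571). Scaling narrowed the spread of Arntl over the 6 libraries from a highest-to-lowest ratio of 1.68 to 1.24.

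Clock (chromosome 5, 76209868 to 76304792, minus strand) encodes the DNA-binding partner of ARNTL, and its RNA is known to cycle little in many tissues. It was at 25.3, 20.6 and 21.7 TPM in Tnfrsf1a-/- colons, against 25.0, 18.1 and 24.5 TPM in wild-type colons. The group means were nearly equal, at 22.5 ± 2.42 and 22.5 ± 3.83 TPM (SD, n = 3 each), and the groups overlapped. The 95% interval of its log2 fold change, -0.43 to 0.45, still leaves room for moderate changes. Scaled values of Clock spanned only a 1.17-fold range over the 6 libraries, the narrowest of the 10 members after scaling.

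Nr1d1 (chromosome 11, 98767932 to 98775333, minus strand), the repressor of Arntl, had the highest level of the 10 members. It was at 38.7, 38.1 and 60.6 TPM in Tnfrsf1a-/- colons, against 38.9, 54.0 and 59.9 TPM in wild-type colons. Scaled values of Nr1d1 were 36.5, 41.5 and 56.9 in Tnfrsf1a-/- colons, against 34.4, 68.7 and 54.5 in wild-type colons. On both scales the spread within a genotype exceeded the difference between them (log2 fold change -0.16 ± 0.23 as deposited and -0.19 ± 0.26 scaled, SE). Scaling raised wild-type replicate 2 to the highest Nr1d1 value of all libraries and widened the highest-to-lowest ratio to 1.998, against 1.59 as deposited. Nr1d1 shares 263 exonic bases, 8.5% of its exonic length, with Thra on the opposite strand. Thra, a thyroid hormone receptor gene, was at 70.1 to 85.0 TPM in Tnfrsf1a-/- colons and 53.3 to 80.0 TPM in wild-type colons, and the labels do not say whether reads were assigned by strand.

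Nr1d2 (chromosome 14, 18204054 to 18239127, minus strand), the closely related second repressor, was at 22.7, 20.5 and 23.9 TPM in Tnfrsf1a-/- colons, against 21.1, 22.5 and 27.7 TPM in wild-type colons. Scaled values of Nr1d2 were 21.4, 22.3 and 22.4 in Tnfrsf1a-/- colons, against 18.7, 28.7 and 25.2 in wild-type colons. The groups overlapped on both scales, with log2 fold changes of -0.08 ± 0.21 as deposited and -0.11 ± 0.15 scaled (SE). A transcript annotated with a retained intron made up 15.2 to 22.5% of the Nr1d2 value in Tnfrsf1a-/- colons and 15.7 to 25.1% in wild-type colons. The coding transcript of Nr1d2 was at 17.6, 17.4 and 19.8 TPM in Tnfrsf1a-/- colons, against 17.8, 17.5 and 20.8 TPM in wild-type colons, a narrow range in both genotypes.

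Dbp (chromosome 7, 45705088 to 45710203, plus strand), the D-box activator that serves as a direct readout of ARNTL and CLOCK, was at 6.56, 10.53 and 8.86 TPM in Tnfrsf1a-/- colons, against 6.89, 5.88 and 7.78 TPM in wild-type colons. The means were 8.65 ± 1.99 and 6.85 ± 0.954 TPM (SD, n = 3 each). Tnfrsf1a-/- replicates 2 and 3 lay above all wild-type colons, and replicate 1 lay among them. Scaled values of Dbp were 6.18, 11.47 and 8.31 in Tnfrsf1a-/- colons, against 6.09, 7.48 and 7.09 in wild-type colons, with the same overlap. The log2 fold change was 0.30 ± 0.24 (SE), with a 95% interval of -0.19 to 0.79, and 0.27 ± 0.21 scaled (SE). Dbp shares 539 exonic bases, 18.0% of its exonic length, with the sphingosine kinase gene Sphk2 on the opposite strand, which was at 21.4 to 28.5 TPM in Tnfrsf1a-/- colons and 22.2 to 26.1 TPM in wild-type colons.

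Per1 (ENSMUSG00000020893, chromosome 11, 69095217 to 69109960, plus strand) encodes a period protein of the repressor complex and is also known as a gene that light, stress hormones and growth signals induce directly. It was at 11.0, 8.72 and 11.7 TPM in Tnfrsf1a-/- colons, against 6.69, 6.31 and 7.92 TPM in wild-type colons. Every Tnfrsf1a-/- colon lay above every wild-type colon, which was the case for 3.17% of all genes tested. The means were 10.48 ± 1.57 and 6.97 ± 0.843 TPM (SD, n = 3 each). Its log2 fold change was 0.55 ± 0.23 (SE; 95% interval 0.08 to 1.02; limma, unadjusted p = 0.0237, adjusted p = 1.0). With scaling it was 0.52 ± 0.13 (SE; limma, unadjusted p = 0.00403, adjusted p = 0.334). After scaling too, every Tnfrsf1a-/- colon lay above every wild-type colon, as in 9.29% of all genes. Without wild-type replicate 2 the log2 fold change was 0.49 on TPM as deposited and 0.61 with scaling. The separation of the summed values rests on a transcript of 496 bases that has a value in Tnfrsf1a-/- replicate 2 only. Without it Per1 was at 11.0, 7.16 and 11.7 TPM in Tnfrsf1a-/- colons, against the same wild-type values, so that replicate 2 lay below wild-type replicate 3, and the scaled values of the genotypes overlapped as well (7.81 in Tnfrsf1a-/- replicate 2, against 8.02 in wild-type replicate 2). The log2 fold change was then 0.46 ± 0.24 (SE; limma, unadjusted p = 0.0643, adjusted p = 1.0), and 0.43 ± 0.16 with scaling (SE; limma, unadjusted p = 0.0298, adjusted p = 0.41). Over all 23 fits of the full sums, the log2 fold change of Per1 stayed between 0.41 and 0.67 and the smallest adjusted p was 0.184. The longest coding transcript of Per1 alone was at 5.66 to 8.70 TPM in Tnfrsf1a-/- colons and at 3.70 to 5.65 TPM in wild-type colons.

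Summed markers of adipocytes and of colonocytes and goblet cells were higher in every Tnfrsf1a-/- colon than in any wild-type colon. The sums of the other cell types overlapped between genotypes. All sums are of TPM as deposited, which are lowered in wild-type replicate 2, and were not scaled. The summed TPM of 8 adipocyte markers was 274 to 343 in Tnfrsf1a-/- colons and 102 to 209 in wild-type colons. All 8 were higher on average in the knockout and 6 of them had no overlap, beside 3.17% of all genes. The marker lists were chosen with earlier results of these data known. The adipokine Adipoq, a defining marker, was at 5.61 to 9.67 TPM in Tnfrsf1a-/- colons and 1.34 to 4.47 TPM in wild-type colons. The summed TPM of 10 colonocyte and goblet cell markers was 7590 to 8060 in Tnfrsf1a-/- colons and 5540 to 7360 in wild-type colons, with 9 of 10 higher on average. Smooth muscle markers summed to 6230 to 7470 TPM in Tnfrsf1a-/- colons and 5980 to 8610 TPM in wild-type colons, with none of 8 higher on average. Enteric neuron and glia markers summed to 39.8 to 42.9 TPM in Tnfrsf1a-/- colons and 27.1 to 42.1 TPM in wild-type colons, with 5 of 8 higher on average. B and plasma cell markers summed to 22.9 to 57.5 TPM in Tnfrsf1a-/- colons and 49.8 to 77.3 TPM in wild-type colons, with all 9 lower on average. Skeletal muscle markers summed to 1010 to 2640 TPM in Tnfrsf1a-/- colons and 164 to 2660 TPM in wild-type colons, with all 8 higher on average. Squamous and hair markers summed to 616 to 841 TPM in Tnfrsf1a-/- colons and 209 to 954 TPM in wild-type colons, with 6 of 9 higher on average. No marker was under 0.1 TPM in every library. The part of tissue make-up in the values of Per1 and the other members was not tested, and in whole colon fewer cells of a type and less RNA per cell cannot be told apart.

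Per2 (chromosome 1, 91415982 to 91459324, minus strand), a period gene needed for stable rhythms, was the lowest of the 10. It was at 7.18, 3.72 and 3.45 TPM in Tnfrsf1a-/- colons, against 4.67, 5.33 and 5.16 TPM in wild-type colons. Tnfrsf1a-/- replicate 1 was highest of all libraries and the other Tnfrsf1a-/- colons were lowest. In wild-type replicate 2, a processed transcript of 231 bases held 49.5% of the Per2 value, at 2.64 TPM, and it was at 0.06 TPM or less elsewhere. The log2 fold change of Per2 was -0.14 ± 0.27 (SE) for the sum and 0.16 ± 0.33 (SE) for its full-length coding transcript, so its sign depends on that short transcript. Scaled values of Per2 were 6.76, 4.05 and 3.23 in Tnfrsf1a-/- colons, against 4.13, 6.78 and 4.70 in wild-type colons, and overlapped.

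Per3 (chromosome 4, 151003652 to 151044665, minus strand), a period gene that is dispensable for the central rhythm, was at 7.31, 5.50 and 7.09 TPM in Tnfrsf1a-/- colons, against 9.04, 6.00 and 9.18 TPM in wild-type colons. The groups overlapped through wild-type replicate 2 (log2 fold change -0.25 ± 0.24, SE; limma, adjusted p = 1.0). After scaling, Per3 was at 6.88, 5.99 and 6.65 in Tnfrsf1a-/- colons, against 7.99, 7.63 and 8.36 in wild-type colons. Every scaled Tnfrsf1a-/- value of Per3 then lay below every wild-type value, as in 9.18% of all genes. The scaled log2 fold change was -0.28 ± 0.09 (SE; limma, unadjusted p = 0.0199, adjusted p = 0.393). Per1 and Per3 had mean differences of opposite sign in these colons, neither past the threshold.

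Cry1 (chromosome 10, 85131700 to 85185064, minus strand) and Cry2 (chromosome 2, 92403646 to 92434043, minus strand) encode the cryptochromes that hold ARNTL and CLOCK inactive. Cry1 was at 10.03, 8.32 and 9.35 TPM in Tnfrsf1a-/- colons, against 12.8, 6.70 and 9.53 TPM in wild-type colons. Cry2 was at 19.4, 13.5 and 11.4 TPM in Tnfrsf1a-/- colons, against 16.97, 11.7 and 15.9 TPM in wild-type colons. Both genes overlapped between genotypes, with log2 fold changes of -0.02 ± 0.24 for Cry1 and -0.03 ± 0.24 for Cry2 (SE). Scaled Cry1 was at 9.44, 9.07 and 8.77 in Tnfrsf1a-/- colons, against 11.35, 8.53 and 8.67 in wild-type colons. Scaled Cry2 was at 18.3, 14.75 and 10.7 in Tnfrsf1a-/- colons, against 15.01, 14.94 and 14.53 in wild-type colons. On both scales the wild-type colons spanned the wider range for Cry1, and the Tnfrsf1a-/- colons did for Cry2. Cry2 shares 295 exonic bases with the noncoding gene D930015M05Rik on the opposite strand.

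**Figure D2:**
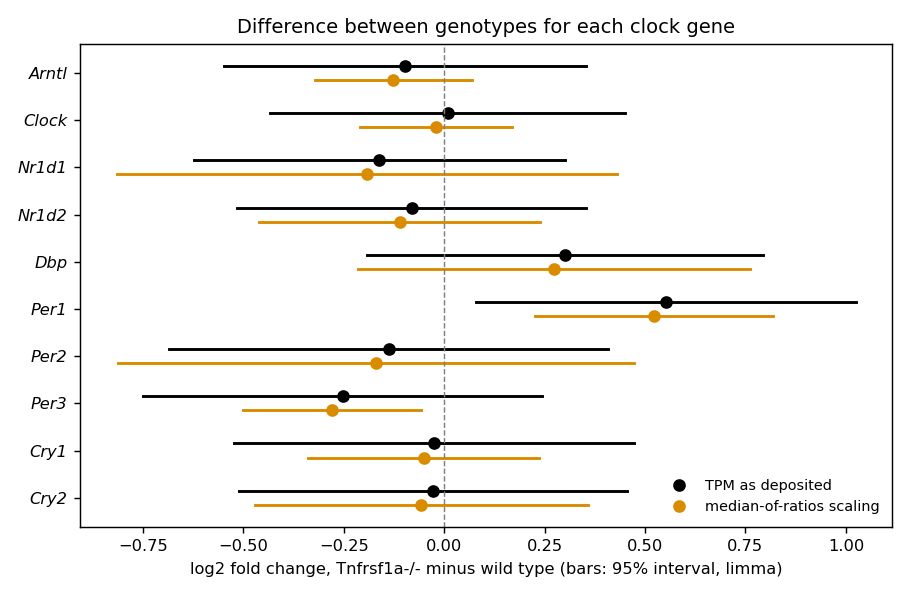
Log2 fold change of each core clock gene, Tnfrsf1a-/- minus wild type, with the 95% interval from limma, for TPM as deposited (black) and after median-of-ratios scaling (orange). The Per1 intervals lie above 0 under both, the scaled Per3 interval lies below 0, and no member passed the threshold after adjustment.

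The order of levels, as mean TPM over the 6 libraries, ran from Nr1d1 (48.4) through Arntl (35.7), Nr1d2 (23.1), Clock (22.5), Cry2 (14.8), Cry1 (9.46), Per1 (8.73), Dbp (7.75) and Per3 (7.35) to Per2 (4.92). Nr1d1 exceeded Arntl in 5 of 6 libraries, and Arntl exceeded Nr1d2 in 6 of 6. Neighbours further down were not all separable. Nr1d2 exceeded Clock in 3 of 6 libraries, Cry1 exceeded Per1 in 3 of 6, Per1 exceeded Dbp in 4 of 6 and Dbp exceeded Per3 in 2 of 6. Per2 was below Per3 in 6 of 6 libraries. In this order between genes Nr1d1 and Arntl ranked highest, and the period genes and Dbp were at the low end. Where a gene stood within its own daily range cannot be told from it.

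Ratios of Arntl to each other member were taken within a library, where they do not depend on scaling, to compare the phase relations of the loop between genotypes. Of the 9 ratios, 1 separated the genotypes, that of Arntl to Per1, where chance alone separates 3 against 3 with a probability of 0.1 per ratio. This ratio holds the difference of Per1 itself (log2 fold change 0.55, against -0.10 for Arntl), so it is not a separate result. Its log2 values were 1.74, 1.74 and 1.51 in Tnfrsf1a-/- colons, against 2.67, 2.01 and 2.26 in wild-type colons. The Tnfrsf1a-/- colons all lay below the wild-type colons, with a difference of -0.65 (two-sided exact permutation test, p = 0.1, the smallest that 3 against 3 can give; 0.675 adjusted over the 9 ratios). Without the Per1 transcript of 496 bases the log2 ratio in Tnfrsf1a-/- replicate 2 was 2.007, against 2.011 in wild-type replicate 2, so the genotypes only just stayed apart. The design cannot bring any ratio past 0.05.

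The ratios to the other phase markers overlapped between genotypes. Log2 of Arntl to Dbp was 2.45, 1.48 and 1.89 in Tnfrsf1a-/- colons, against 2.63, 2.10 and 2.28 in wild-type colons. Log2 of Arntl to Nr1d1 was -0.03, -0.33 and -0.81 in Tnfrsf1a-/- colons, against 0.21, -0.99 and -0.58 in wild-type colons. The differences were -0.40 for Dbp (exact permutation p = 0.3) and 0.06 for Nr1d1 (exact permutation p = 0.9). The Nr1d1 ratio covered more ground within each genotype, with SDs of 0.40 in Tnfrsf1a-/- colons and 0.61 in wild-type colons, than between them. Replicate 1 had the highest Arntl-to-Nr1d1, Arntl-to-Nr1d2 and Arntl-to-Dbp ratios in both genotypes, and replicate numbers are not stated to mark a shared day. For Arntl to Per3 the difference was 0.15 (exact permutation p = 0.2), and for Clock, Cry1, Cry2, Nr1d2 and Per2 it lay between -0.11 and 0.04 (exact permutation p from 0.3 to 0.9).

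**Figure D3:**
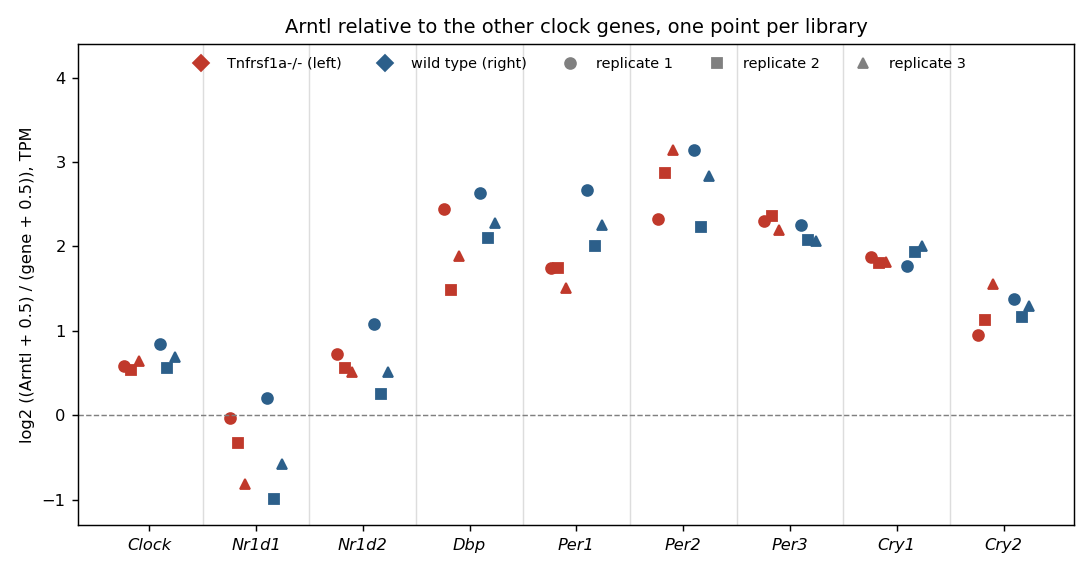
Log2 ratio of Arntl to each of the other 9 clock genes (vertical axis, from TPM + 0.5), with 1 point per library, Tnfrsf1a-/- left of wild type and shapes for replicate numbers. Only for Per1 do the genotypes separate, and for Nr1d1 the values run from -0.99 to 0.21 across the 6 libraries.

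Across the 6 libraries, scaled Arntl correlated negatively with Dbp, Per1, Nr1d1 and Nr1d2, although no relation passed after adjustment over the 9 tested. Such values were not particular to clock genes. Among all genes tested, many others ran more strongly against Arntl than any of these members, down to r = -0.993 (Pkdcc). Arntl against Dbp gave r = -0.74 and rho = -0.89 (exact permutation p = 0.0972 and 0.0333; adjusted 0.259 and 0.175), and r = -0.88 without Tnfrsf1a-/- replicate 3 and wild-type replicate 1, the 2 libraries farthest from the median of Arntl. Arntl against Per1 gave r = -0.83 and rho = -0.83 (exact permutation p = 0.0375 and 0.0583; adjusted 0.259 and 0.175), but r = -0.30 without those 2 libraries, so it rests on them. Arntl against Nr1d1 gave r = -0.55 and rho = -0.60 (exact permutation p = 0.253 and 0.242; adjusted 0.429 and 0.535), and r = -0.01 without the 2 libraries. Nr1d2 gave r = -0.46 and rho = -0.37 (exact permutation p = 0.351 and 0.497; adjusted 0.452 and 0.559), and r = 0.00 without the 2 libraries.

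The remaining members had positive correlations with Arntl. Here too, many other genes had a higher r than any of these members, up to 0.997 (Cyb5rl). Per3 gave r = 0.70 and rho = 0.83 (exact permutation p = 0.115 and 0.0583; adjusted 0.259 and 0.175), with r = 0.75 without the 2 libraries. Cry1 gave r = 0.79 and rho = 0.37 (exact permutation p = 0.0694 and 0.497; adjusted 0.259 and 0.559), with r = 0.04 without them, so it rests on them as well. Cry2, Clock and Per2 gave r of 0.51, 0.34 and 0.19 (exact permutation p from 0.286 to 0.722; adjusted 0.429 to 0.722). As a description, the deviations of Arntl from its genotype means ran against those of Nr1d1 (r = -0.96), Nr1d2 (r = -0.87), Per1 (r = -0.77) and Dbp (r = -0.64). Scaling mattered to these values: on TPM as deposited r turned positive for Per1 (0.08) and Nr1d2 (0.23) and shrank for Nr1d1 (-0.21) and Dbp (-0.09). Clock (r = 0.94) and Cry1 (r = 0.96) then passed the threshold against Arntl (exact permutation, adjusted p = 0.025 for both). TPM as deposited are lowered together in wild-type replicate 2 (scaling factor 0.786), which such an r takes in. On scaled values r was 0.34 for Clock and 0.79 for Cry1, and neither passed.

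The summed values hold 25 member transcripts with a value, of which 15 had a mean of at least 1 TPM and were tested. None passed the threshold, which 13 of 31056 transcripts did (0.0419%), and 1 had an unadjusted p under 0.05, the longest coding transcript of Per1. That transcript of 4671 bases (ENSMUST00000021271) was at 8.55, 5.66 and 8.70 TPM in Tnfrsf1a-/- colons, against 5.09, 3.70 and 5.65 TPM in wild-type colons. The lowest Tnfrsf1a-/- value, that of replicate 2, lay just above the highest wild-type value. Its log2 fold change was 0.61 ± 0.26 (SE, limma, unadjusted p = 0.0386, adjusted p = 0.97). With scaling it was also 0.61 (limma, unadjusted p = 0.00352, adjusted p = 0.341). The next Per1 transcript, of 3507 bases, was at 2.45, 1.49 and 2.97 TPM in Tnfrsf1a-/- colons, against 1.52, 1.90 and 2.14 TPM in wild-type colons, and overlapped.

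Per1 in Tnfrsf1a-/- replicate 2 held 1.55 TPM of the transcript of 496 bases, 17.8% of the Per1 value there. For Per3 the full-length transcript made up 63.7 to 75.2% of the gene in Tnfrsf1a-/- colons and 60.9 to 67.0% in wild-type colons, the rest being processed, retained-intron and decay-annotated transcripts. The Per3 full-length transcript alone was at 5.50, 3.87 and 4.51 TPM in Tnfrsf1a-/- colons, against 5.51, 3.68 and 6.15 TPM in wild-type colons. That left a log2 fold change of -0.11 ± 0.26 (SE), smaller than that of the sum. Arntl, Clock, Cry1 and Dbp each rested on 1 transcript with a value, so their sums and transcript values are the same.

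**Figure D4:**
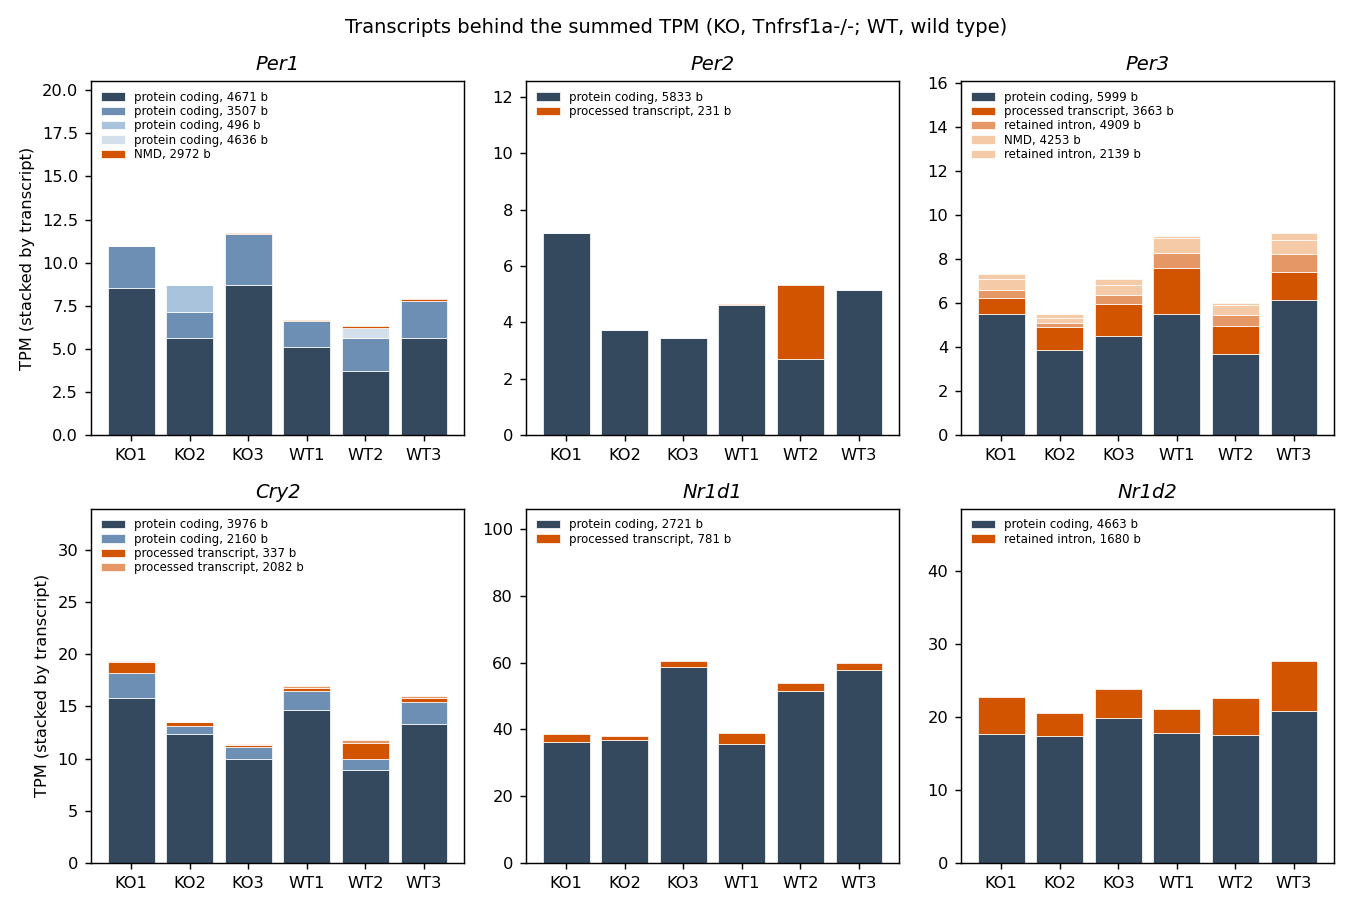
TPM of the transcripts that make up 6 clock genes, stacked per library (KO, Tnfrsf1a-/-; WT, wild type), with coding transcripts in blue and noncoding or decay-annotated ones in orange, named by length in bases (b). A transcript of 231 bases holds 49.5% of Per2 in wild-type replicate 2, and the longest Per1 transcript is higher in each Tnfrsf1a-/- library than in any wild-type library.

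Around the core loop, 20 of 22 further clock genes were tested, among them the ROR activators, the PAR bZIP factors Tef and Hlf, the casein kinases that phosphorylate PER, and ubiquitin ligase subunits. None passed the threshold in either direction, 6 had a positive and 14 a negative log2 fold change, and the median was -0.03, beside 0.025 over all genes. Timeless, a replication fork protein related to a fly clock gene, had the smallest p. It was at 10.6, 7.79 and 8.92 TPM in Tnfrsf1a-/- colons, against 16.2, 8.47 and 15.5 TPM in wild-type colons (log2 fold change -0.49 ± 0.25, SE; limma, adjusted p = 1.0). The groups overlapped through wild-type replicate 2. After scaling every Tnfrsf1a-/- value of Timeless lay below every wild-type value, as in 9.18% of all genes. Prkaa2, an AMPK subunit that acts on CRY stability, had a log2 fold change of 0.23, and Tef and the Arntl activator Rora had -0.18 and -0.19. Scaled values of Prkaa2 were all higher in Tnfrsf1a-/- than in wild-type colons, as in 9.29% of all genes.

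Of 17 clock-controlled output genes found in the data, 16 were tested and none passed. Their log2 fold changes were positive for 8 and negative for 8, with a median of 0.02. Slc9a3, the sodium-proton exchanger NHE3 of the gut epithelium, came nearest. It was at 7.62, 5.2 and 7.85 TPM in Tnfrsf1a-/- colons, against 2.10, 3.96 and 4.42 TPM in wild-type colons. All Tnfrsf1a-/- values of Slc9a3 lay above all wild-type values, as in 3.17% of all genes (log2 fold change 0.92 ± 0.27, SE; limma, unadjusted p = 0.00209, adjusted p = 0.256). It passed when Tnfrsf1a-/- replicate 2 was left out, with 1.10 on the log2 scale (limma, adjusted p = 0.0235). In that fit 84 genes passed as higher and 87 as lower, against 13 and 25 with all libraries. Coq10b, a coenzyme Q-binding protein gene, also had no overlap (0.37), while the transferrin receptor gene Tfrc (-0.30) and the heat shock gene Hspa1b (0.31) overlapped. After scaling every Tnfrsf1a-/- value of Tfrc lay below every wild-type value, as in 9.18% of all genes. Its scaled log2 fold change was -0.33 (limma, unadjusted p = 0.00489, adjusted p = 0.334).

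Since Per1 also responds to hormones and to acute stimulation, glucocorticoid-responsive and immediate early genes were set beside it. Whether either bears on Per1 in these colons was not tested. None of the 10 glucocorticoid-responsive genes passed. Of these, 8 were positive and 2 negative, with a median of 0.25, and of 0.22 after scaling. Without wild-type replicate 2 the median was 0.055, beside -0.128 over all genes in that fit. Sgk1, a kinase that promotes sodium uptake, was at 124, 111 and 86.3 TPM in Tnfrsf1a-/- colons, against 63.2, 57.3 and 81.2 TPM in wild-type colons. No Tnfrsf1a-/- value of Sgk1 lay among the wild-type values (log2 fold change 0.67 ± 0.21, SE; limma, unadjusted p = 0.00341, adjusted p = 0.327). Pdk4, which restrains glucose oxidation (0.73), and the transcription factor gene Cebpd (0.56) likewise had no overlap, and Errfi1 (0.36) overlapped. That makes 3 of 10 genes wholly higher, beside 3.17% of all genes, and 4 of 10 after scaling, beside 9.29%. The list was chosen with earlier results of these data known, so these shares are no test of it. Pdk4 passed when wild-type replicate 1 was left out, with 0.99 (limma, adjusted p = 0.0416). That fit called 199 genes higher and 108 lower, against 13 and 25 with all libraries. Fkbp5, a widely used glucocorticoid target, went the other way with -0.32 and every Tnfrsf1a-/- value below the wild-type values, as in 1.82% of all genes, although its groups overlapped after scaling; it was added here after its values were seen.

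Among the 10 immediate early genes none passed, with 6 positive and 4 negative log2 fold changes. Their median was 0.06, and 0.03 after scaling. It turned to -0.144 without wild-type replicate 2, beside -0.128 over all genes, and to -0.06 without Tnfrsf1a-/- replicate 3. The orphan receptor gene Nr4a1 was at 29.2, 10.6 and 27 TPM in Tnfrsf1a-/- colons, against 21.4, 5.0 and 8.24 TPM in wild-type colons. Its groups overlapped through wild-type replicate 1 and Tnfrsf1a-/- replicate 2 (log2 fold change 1.03 ± 0.35, SE; limma, adjusted p = 0.543). Without wild-type replicate 1 it passed with 1.59 (limma, adjusted p = 9.54e-07), and so it did without Tnfrsf1a-/- replicate 2 with 1.49 (limma, adjusted p = 2.86e-05). Those fits called 199 and 84 of all genes higher and 108 and 87 lower, in that order. With scaling and all libraries, the log2 fold change of Nr4a1 was 1.01 ± 0.46 (SE, limma, unadjusted p = 0.0632, adjusted p = 0.461). The stress factor gene Atf3, at 0.53 in the full set, passed without wild-type replicate 1 with 0.99 (limma, adjusted p = 0.00741). The AP-1 genes Fosb (0.47) and Jun (0.15) overlapped.

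**Figure D5:**
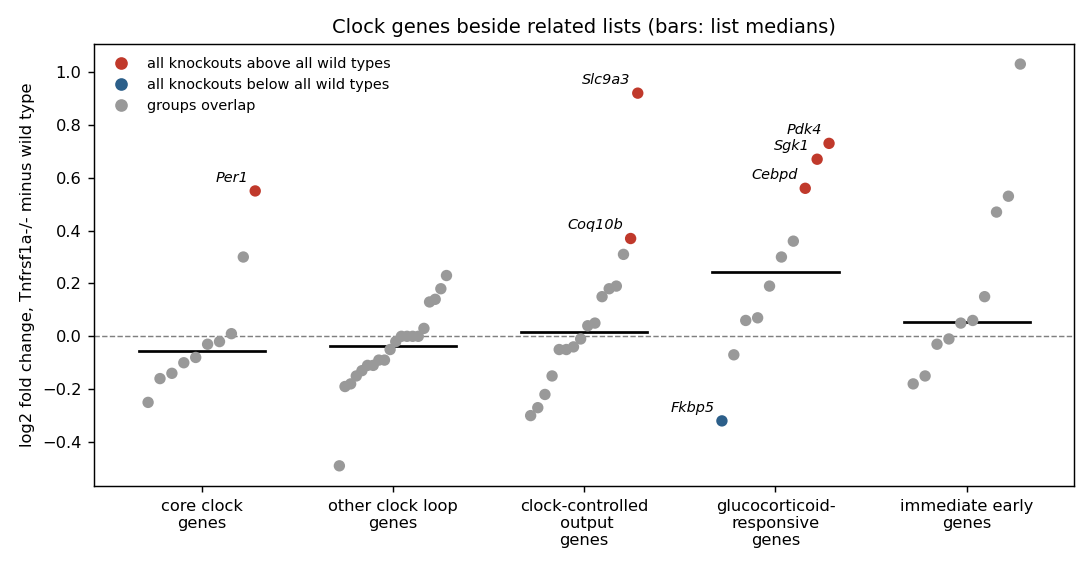
Log2 fold change, Tnfrsf1a-/- minus wild type, of each tested gene in the core clock and 4 related lists, with horizontal bars at the list medians. Red points, among them Per1, are genes with every Tnfrsf1a-/- library above every wild-type library. The median of the glucocorticoid-responsive list, 0.25, is 0.055 without wild-type replicate 2, where that of all genes is -0.128.

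The genes whose scaled profile was most like that of Arntl over the 6 libraries were Cyb5rl (r = 0.997), Mthfsd (0.991), Tada2a (0.987), Nrd1 (0.984) and Itpkb (0.98), and the most opposite were Pkdcc (-0.993), Pik3cb (-0.992) and Ildr1 (-0.989). For Dbp they were Ankrd13c (0.996), Card19 (0.99), Mvb12a (0.988), Vamp8 (0.988) and Tsn (0.987), with Ctns (-0.994), Mknk1 (-0.994) and Ptgs2 (-0.993) most opposite. No other clock member was among these genes. With 14248 genes and 6 libraries such values are a description of these samples only.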

How the data were processed

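The authors deposited a table of TPM per transcript for 6 whole colons, made with kallisto 0.43.1 and tested with sleuth on mm10, per the submitters' processing notes. RNA came from a PureLink kit and libraries from the SMARTer Universal Low Input kit, per the labels' protocols. The deposited table held 132639 lines for 131206 transcripts, since 1433 lines repeat a transcript with the same values; each was taken once. Transcripts with no gene (1380) were left out of the tests, and 43008 without a value were dropped.

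TPM were summed per gene symbol and compared as log2(TPM + 0.5), for the 14248 genes whose mean over all libraries reached 1 TPM, with limma 3.58.1 in R 4.3.3 (variance trend, Benjamini-Hochberg adjustment over all genes, threshold 0.05). With this offset, fold changes of weakly expressed genes come out too small. Ratios and correlations used two-sided exact permutation tests (scipy 1.17.1). P-values measure the spread between these 6 samples. The fit was tested on simulated data, where it called 30 of 100 genes with a log2 change of 1 and 93 of 100 with a log2 change of 2. It called 4 of 14048 genes without a change. Many changes of the smaller size were thus missed. Gene positions are from GENCODE M21 of mm10, and promoter sequences from RefSeq.

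The members and the gene lists were chosen with earlier results of these data known. Named genes are all members, the 4 of each related list with the smallest p and any past the threshold, Tnfrsf1a, and the 5 most alike and 3 most opposite genes to Arntl and to Dbp; Adipoq, Fkbp5 and the genes that overlap a member on the other strand (Thra, Sphk2, D930015M05Rik) were named outside this rule. Genotypes share replicate numbers in the labels, but same-numbered samples deviated together with correlations of 0.052, 0.132 and 0.183, so the numbers were not taken as pairs. Alternatives changed the pseudocount, filter, scaling, variance model, replicate block and libraries.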

Additional observations from a re-analysis of the deposited data

How the results depend on the processing

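No core clock gene passed the threshold in the 23 gene fits, and no transcript of one in the 12 fits run on transcripts. Per1, Dbp and Per3 kept their direction throughout. The genes called among all genes were far less stable. Higher calls (13) became 1 with no filter, 75 at a 5 TPM filter, 5 with median-of-ratios scaling, 3 when rescaled over transcripts with a gene, 35 with robust variance and 7 with the replicate block and scaling. Lower calls (25) became 14 at a pseudocount of 0.1, 1 with no filter, 67 at 5 TPM, 1 with scaling, 1 when rescaled, 48 with robust variance and 58 with the replicate block. Leaving out 1 library gave 4 to 199 higher and 15 to 140 lower calls, and 2 to 6 and 0 to 15 with scaling. The 199 came without wild-type replicate 1, the 4 and 15 without wild-type replicate 2 and the 140 without Tnfrsf1a-/- replicate 3, and leaving out any 1 of the 6 libraries moved both counts by over 1.5 times. The block changed no call of a member (higher calls 13; block with scaling, 19 lower). Rescaling moved the median of all genes to -0.097 and leaving out wild-type replicate 2 to -0.128. The cause of these changes was not tested.

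Signs of log2 fold changes and of ratio differences that turned belonged to small values, while those of correlations did not all. Clock was -0.021 with scaling, -0.118 when rescaled and -0.021 with the block and scaling, and with scaling it was -0.03, -0.032, -0.002 and -0.027 without Tnfrsf1a-/- replicate 2 and wild-type replicates 1, 2 and 3. On the most abundant transcript, an alternative chosen after seeing the data, Per2 was 0.16 and Cry2 0.05, and the Arntl-to-Per2 ratio difference was -0.253. The Per1 sum without its transcript of 496 bases, also chosen after seeing the data, gave 0.463. The 5 TPM filter left Per2 out. On TPM as deposited, r with Arntl was 0.077 for Per1, against -0.83 on scaled values, and 0.23 for Nr1d2, against -0.46. It was 0.94 for Clock and 0.96 for Cry1 (exact permutation, adjusted p = 0.025 for both), against 0.34 and 0.79 on scaled values, where neither passed. Without the 2 farthest libraries Nr1d2 gave 0.001. At 5 TPM, 1 immediate early gene passed, Nr4a1.

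Leaving out 1 library in turn gave log2 fold changes of -0.312 to 0.055 for Arntl, -0.137 to 0.09 for Clock, 0.469 to 0.673 for Per1, -0.442 to 0.038 for Per2, -0.44 to -0.132 for Per3, -0.252 to 0.192 for Cry1, -0.236 to 0.136 for Cry2, -0.378 to -0.034 for Nr1d1, -0.161 to 0.032 for Nr1d2 and 0.154 to 0.475 for Dbp. With scaling the ranges were -0.07 to 0.039 for Clock, -0.441 to 0.039 for Per2 (0.021 without wild-type replicate 2), -0.12 to 0.075 for Cry1, -0.231 to 0.143 for Cry2, -0.466 to 0.028 for Nr1d1 and -0.283 to 0.02 for Nr1d2. Ratio differences were -0.209 to 0.268 for Per2, -0.237 to 0.061 for Cry2, -0.204 to 0.397 for Nr1d1, -0.197 to 0.216 for Nr1d2 and -0.799 to -0.472 for Per1. Medians were 0.055 to 0.333 for glucocorticoid-responsive and -0.144 to 0.285 for immediate early genes, -0.16 to 0.046 for other clock loop genes and -0.072 to 0.064 for output genes. List calls were 0 to 1 for output and glucocorticoid genes and 0 to 2 for immediate early genes.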
